A study of Mus musculus with 6 samples.

Results

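The 8 transcripts described here are low-level messages of cells that line and support the peritoneum, measured in RNA of peritoneal macrophages. They were taken by gene symbol from the 15415 genes listed in the table of this experiment, and all 8 were found there. Msln (mesothelin) and Upk3b (uroplakin 3B) are surface proteins of mesothelial cells, Krt8, Krt18 and Krt19 are keratins of simple epithelia and mesothelium, and Col1a1, Col1a2 and Col3a1 are the fibrillar collagen chains that fibroblasts make in bulk. They were chosen by name, with no threshold on a measured value.

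RNA of PEMs was sequenced in 6 libraries. PEMs are macrophages washed out of the peritoneal cavity some days after an injection of starch, which draws leukocytes into it. The 3 knockout libraries were made from LysM-Cre; Tim-4 fl/fl animals and the 3 control libraries from Tim-4 fl/fl animals without Cre, so both groups carried the floxed Tim-4 allele on a C57BL/6J background. The labels give LPS, a bacterial cell wall component, as the treatment of all 6, and they give no age. Cre was driven by the Lyz2 (lysozyme M) promoter, which is active in myeloid cells. The control mice did not carry LysM-Cre, so that the loss of Tim-4 and the presence of Cre at Lyz2 cannot be told apart. No source used here says whether each library was 1 animal or a pool, so the p-values below measure the spread between these libraries, which may be partly technical.

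The mesothelium is a single sheet of flattened epithelial cells that covers the peritoneal wall and organs. It sits on a thin layer of connective tissue in which fibroblasts make type I and type III collagen. Keratin 8 pairs with keratin 18 or 19 to form the intermediate filaments of such epithelia, type I collagen is built from the products of Col1a1 and Col1a2, and type III collagen from that of Col3a1. Macrophages take collagen up and break it down, but are not a main source of it. In bulk RNA, a smaller share of cells of a type and less of a transcript per cell cannot be told apart.

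Among the reads of the listed genes, the libraries held between 36170767 and 42217558. Timd4, the gene of Tim-4, was at 0.333, 0.394 and 0.246 FPKM (fragments per kilobase of gene, scaled to the reads of the library) in knockout libraries 1 to 3. The level in control libraries 1 to 3 was 19.5, 12.05 and 1.19 FPKM. Values below keep this order of the libraries within each group. Timd4 was thus lower in all 3 libraries titled as knockouts than in any control. The genotype labels swap the groups relative to these titles, and the titles were followed. Lyz2 stood at 7090 to 8482 FPKM in the controls and at 41.4, 4656 and 106 FPKM in knockout libraries 1 to 3, so knockout library 2 stood apart from the other two. Control library 3 had the least Timd4 of the controls. Summed over 8 macrophage markers, FPKM lay between 2749 and 3031 in the knockout and between 2435 and 2861 in the control libraries. The sum hides single markers that moved in both directions. Cd68, its largest part, had means of 1642 and 1091 FPKM in the knockout and control libraries, Cd14 had 338 and 556, and Csf1r had 105 and 168.

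The start regions of 4 members are shown because the collagens varied together over the libraries, as did the keratins in the controls. They are RefSeq sequences of the mouse build GRCm38.p6, read on the strand of the gene from 130 bases before to 20 bases after its start. Capitals mark each CCAAT or TATAA, the letters of the CCAAT box and the core of the TATA box, on either strand (read here as ATTGG and TTATA where on the other strand).
Col1a2 (chr6:4505488-4505637, plus strand): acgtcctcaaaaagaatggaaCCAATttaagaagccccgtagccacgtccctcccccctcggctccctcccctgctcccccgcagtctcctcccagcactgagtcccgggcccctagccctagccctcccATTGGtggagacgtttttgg
Col3a1 (chr1:45311408-45311557, plus strand): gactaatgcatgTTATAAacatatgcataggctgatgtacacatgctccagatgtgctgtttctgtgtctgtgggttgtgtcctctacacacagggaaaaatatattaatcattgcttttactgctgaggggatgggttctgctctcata
Krt8 (chr15:102004323-102004472, minus strand): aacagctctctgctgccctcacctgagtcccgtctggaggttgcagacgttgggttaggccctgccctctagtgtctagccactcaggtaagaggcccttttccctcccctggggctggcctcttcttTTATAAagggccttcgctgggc
Krt18 (chr15:102028086-102028235, plus strand): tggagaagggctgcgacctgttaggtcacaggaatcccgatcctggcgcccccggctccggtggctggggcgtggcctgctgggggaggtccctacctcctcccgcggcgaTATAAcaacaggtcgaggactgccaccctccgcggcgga

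Counted from the start as base 1, with no base 0, Col1a2 held CCAAT from base -109 and ATTGG from base 1, and no TATAA. Col3a1 held TTATA from base -118, which overlaps TATAA from base -117, and Krt8 held the same overlapping pair from base -2. Krt18 held TATAA from base -19. Over the 32851 RefSeq promoters of 300 bases, from 250 bases before the start to 50 after it, 37.4% held CCAAT on either strand and 24.9% held TATAA, so that these matches are common. The promoter of Upk3b held neither. Msln, Krt19 and Col1a1 have no entry. Krt8 and Krt18 are a type II and a type I keratin that lie near each other on chromosome 15 with 2 annotated genes between them.

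The 3 collagen chains were the members with the largest difference between the groups. On average they stood 4.14 to 7.15 times higher in the knockout libraries. Their levels also spread widely within each group. None of the 3 passed the unpaired test over all genes, Col1a1 and Col1a2 passed with the replicate block described below but not with the block and no filter (adjusted p of 0.114 and 0.0898 by limma), and only Col1a2 had groups that did not overlap.

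Col1a2 encodes the second chain of type I collagen. It was at 1.84, 8.30 and 4.30 FPKM in the knockout group and 0.0437, 0.511 and 1.47 FPKM in the controls. The lowest knockout value exceeded the highest control value, although knockout library 1 and control library 3 lay close together. The means were 4.81 ± 3.26 FPKM and 0.674 ± 0.725 FPKM (SD, n = 3 each), a ratio of 7.15. The difference in log2(FPKM + 1), a scale that compresses changes at low levels, was 1.72 (95% interval 0.63 to 2.82), with an adjusted p of 0.0678 (limma, Benjamini-Hochberg over 9030 genes). A two-sided exact permutation test gave 0.1, the smallest p that 3 libraries against 3 allow. Of the 4 members that were tested, Col1a2 alone did not overlap between the groups with knockout higher, where 11.1% of all genes tested did so. The 3 collagens reached the filter of a mean of 1 FPKM through the knockout group alone, so their passing it is no support for a difference, and with no filter the adjusted p-values of Col1a1, Col1a2 and Col3a1 were 0.160, 0.116 and 0.247 (limma).

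Col1a1 encodes the first chain of type I collagen. It was at 0.923, 4.31 and 2.32 FPKM in the knockout group and 0.0513, 0.403 and 1.01 FPKM in the controls. Knockout library 1 fell just under control library 3, so the groups overlapped in 1 of 9 pairs of libraries, with knockout higher in the other 8. The means were 2.52 ± 1.70 FPKM and 0.487 ± 0.483 FPKM (SD, n = 3 each), a ratio of 5.17. The log2 difference was 1.17 (95% interval 0.26 to 2.08), with an adjusted p of 0.109 by limma. The exact permutation test gave 0.2.

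Col3a1 encodes the only chain of type III collagen, a fibre of elastic and healing tissue. It was at 0.804, 4.35 and 1.59 FPKM in the knockout group and 0.0228, 0.498 and 1.11 FPKM in the controls. Again only knockout library 1 lay below control library 3. The means were 2.25 ± 1.86 FPKM and 0.543 ± 0.544 FPKM (SD, n = 3 each), a ratio of 4.14. The log2 difference was 0.98 (95% interval -0.01 to 1.98), with an adjusted p of 0.184 by limma, and the exact permutation test gave 0.2.

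**Figure D1:**
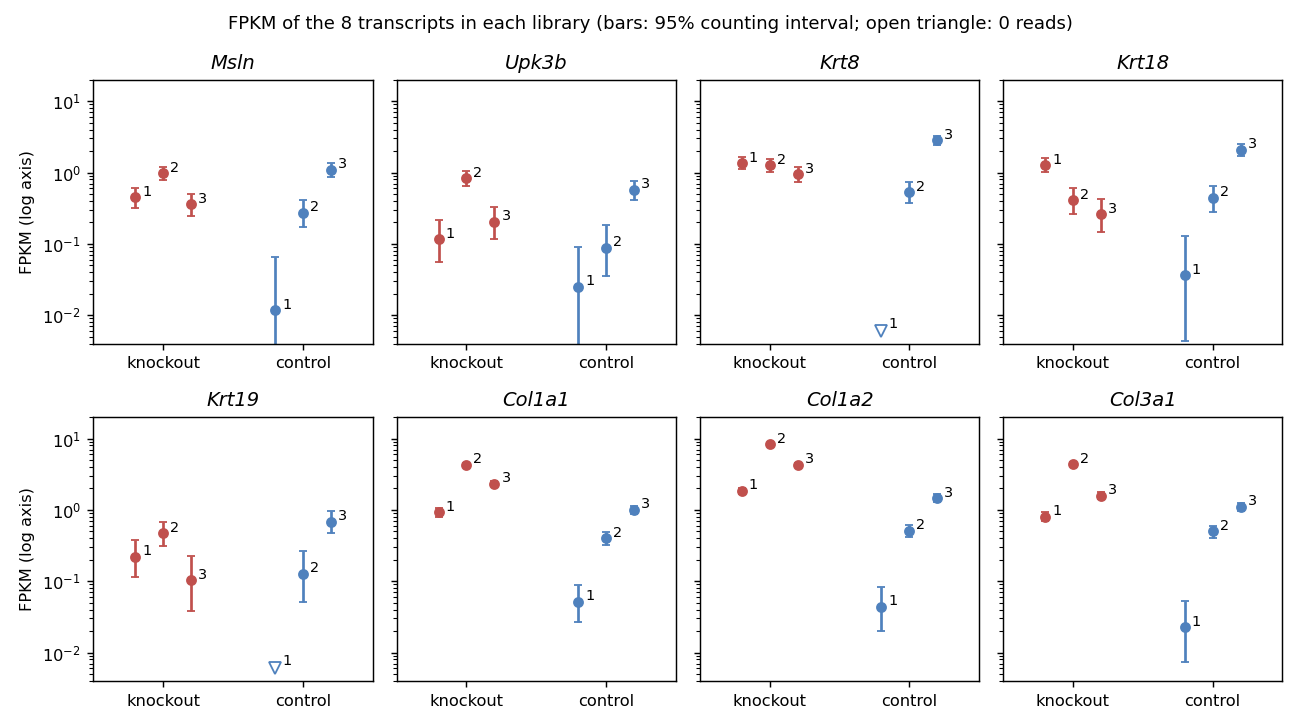
FPKM of each of the 8 transcripts in every library on a log axis, with knockout libraries in red and control libraries in blue, the library number beside each point, exact 95% counting intervals as bars (some run off the lower end of the axis), and an open triangle where there were 0 reads. Col1a2 is the only panel in which the 3 red points, from 1.84 to 8.30 FPKM, all lie above the 3 blue ones, from 0.0437 to 1.47 FPKM, and control library 1 is the lowest point of every panel.

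The reads behind these values were few. Col1a2 rested on 404, 1831 and 919 reads in knockout libraries 1 to 3 and on 9, 104 and 277 in control libraries 1 to 3. Col1a1 rested on 230, 1079 and 562 reads against 12, 93 and 216, and Col3a1 on 188, 1021 and 362 against 5, 108 and 223. At these counts the counting error was small beside the spread between libraries, except in control library 1.

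Within type I collagen the ratio of the chains could be compared per length. Col1a2 over Col1a1 in FPKM was 1.99, 1.93 and 1.86 in knockout libraries 1 to 3, and 0.852, 1.27 and 1.46 in control libraries 1 to 3. It was thus nearly constant in the knockout libraries and lower in each control, of which the lowest rested on 9 and 12 reads. Col3a1 over Col1a1 was 0.871, 1.01 and 0.686 in the knockout and 0.444, 1.24 and 1.10 in the control libraries, and overlapped.

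Taken over all genes tested, limma called 660 of 9030 (7.31%) at an adjusted p below 0.05, 232 of them (2.57%) higher and 428 lower in the knockout libraries. After a rescaling of the libraries by the median of ratios it called 343 higher and 326 lower. Of the 4 members tested (the 3 collagens and Krt8), 0 were called, and 2 had an unadjusted p below 0.05, as did 2494 of the 9030 genes. The voom method on the reads recovered from the FPKM also called 0 of all 8 members, of which 3 had an unadjusted p below 0.05, as did 3753 of all 15415 genes. Both unadjusted counts hold Col1a1 and Col1a2, and the count of 3 holds Col3a1 as well. The median log2 difference of all genes tested was -0.11, and 0.01 after that rescaling, under which the differences of Col1a1, Col1a2 and Col3a1 were 1.25, 1.82 and 1.07.

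Leaving out single libraries moved these values. Without knockout library 2, which held the most collagen message and which alone among the knockout libraries kept Lyz2 at 4656 FPKM, the log2 differences were 0.81 for Col1a1, 1.30 for Col1a2 and 0.55 for Col3a1. Without knockout library 1, the lowest of its group in collagen message, they were 1.55, 2.16 and 1.33, and none passed. Without control library 3 they were 1.41, 2.05 and 1.24, and Col1a2 then had an adjusted p of 0.0298 by limma, where the fit called 529 of 9006 genes (5.87%) higher in the knockout libraries. With no filter that p was 0.0777, and the call was lost. With a replicate block, in which libraries of the same number count as pairs, the fit gave adjusted p-values of 0.0442 for Col1a1, 0.0277 for Col1a2 and 0.0895 for Col3a1 (limma), where 352 of 9030 genes (3.9%) were called higher.

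The keratins did not separate the groups. Krt8 was at 1.36, 1.26 and 0.947 FPKM in the knockout group and 0, 0.526 and 2.82 FPKM in the controls. The control libraries thus held both the lowest and the highest level, with the 3 knockout libraries close together between them. The means were 1.19 ± 0.214 FPKM and 1.11 ± 1.50 FPKM (SD, n = 3 each). The log2 difference was 0.28 (95% interval -0.76 to 1.31), with an adjusted p of 0.712 by limma. In control library 1, where there were 0 reads, a floor of 3 reads corresponds to 0.0421 FPKM. The reads of Krt8 may be shared with its pseudogene Krt8-ps, which is annotated in RefSeq and is not among the listed genes.

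Which control libraries entered the fit decided the value of Krt8. Leaving out control library 1 gave a log2 difference of -0.15, at an adjusted p of 0.797, and leaving out control library 3 gave 0.82, at an adjusted p of 0.0399 (limma), in the fit that called 5.87% of genes higher. Without control library 3 Krt8 reached the filter through the knockout group alone, and with no filter the adjusted p was 0.0740, so the call was lost.

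Krt18, the usual partner of keratin 8, was at 1.27, 0.406 and 0.262 FPKM in the knockout group and 0.0362, 0.440 and 2.07 FPKM in the controls. Knockout library 1 was the high one here, whereas for the collagens it was the lowest of its group. Krt19, which lacks the tail of other type I keratins, was at 0.218, 0.468 and 0.104 FPKM in the knockout group and 0, 0.127 and 0.683 FPKM in the controls. In control library 1, where it had 0 reads, the floor of 3 reads corresponds to 0.0537 FPKM. Both keratins were under the filter of a mean of 1 FPKM in at least one group. In a fit without the filter their log2 differences were -0.06 (adjusted p of 0.946) and 0.02 (adjusted p of 0.966) by limma.

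Krt8 over Krt18 in FPKM was 1.07, 3.10 and 3.62 in knockout libraries 1 to 3. It was 1.20 and 1.36 in control libraries 2 and 3, and in control library 1 it rested on 0 and 2 reads. The 2 partner keratins thus did not keep a constant ratio across the knockout libraries, in which Krt18 rested on 75, 24 and 15 reads and Krt8 on 103, 96 and 70.

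The 2 mesothelial surface markers overlapped between the groups as well. Msln was at 0.448, 0.979 and 0.359 FPKM in the knockout group and 0.0116, 0.271 and 1.09 FPKM in the controls. Upk3b was at 0.117, 0.826 and 0.204 FPKM in the knockout group and 0.0249, 0.0883 and 0.570 FPKM in the controls, in the same order. For both, knockout library 2 was the highest of its group and control library 3 the highest of the other, and the 2 lay close to each other. In control library 1, Msln rested on 1 read and Upk3b on 2.

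The means of Msln were 0.595 ± 0.335 FPKM and 0.458 ± 0.564 FPKM, and those of Upk3b were 0.382 ± 0.387 FPKM and 0.228 ± 0.298 FPKM (SD, n = 3 each), knockout first. The exact permutation tests gave 0.6 for Msln and 0.5 for Upk3b. Without the filter, which neither gene passed, the log2 differences were 0.18 (95% interval -0.51 to 0.87) and 0.16 (95% interval -0.41 to 0.73) by limma. These intervals are wide enough to hold changes in either direction. The difference of Msln became -0.05 without control library 1, and that of Upk3b became -0.06 without knockout library 2.

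**Figure D2:**
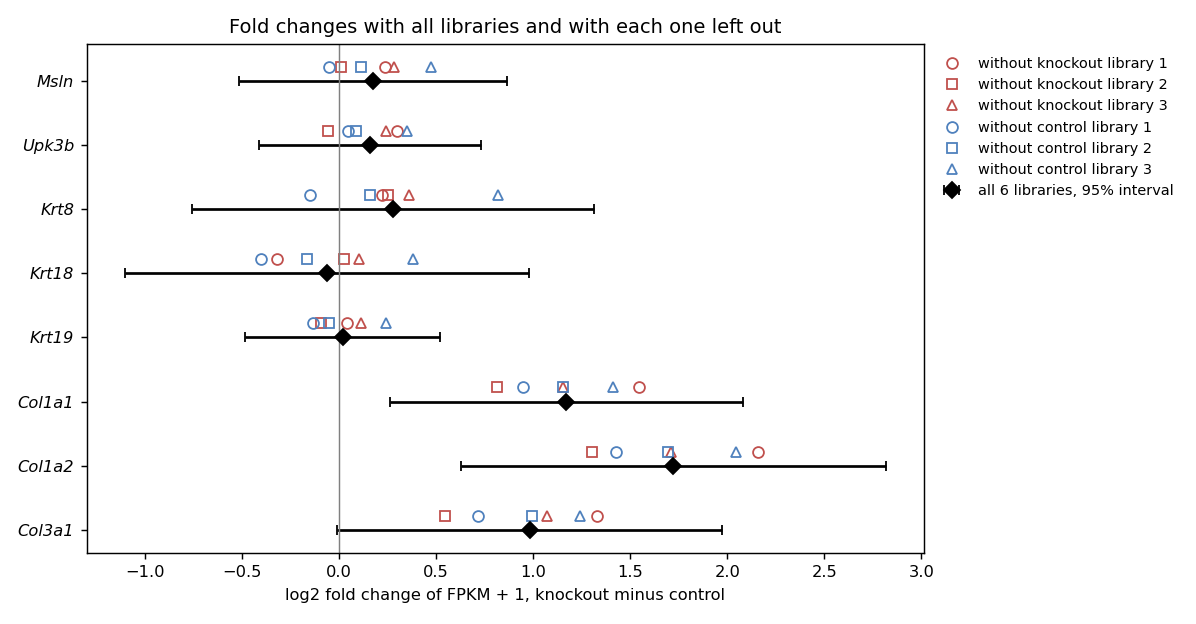
Log2 difference of FPKM + 1, knockout minus control, for each member from all 6 libraries (black diamonds with 95% intervals from limma, without the filter for Msln, Upk3b, Krt18 and Krt19) and with each library left out in turn (open symbols). The open symbols of the 3 collagens stay above 0, from 0.55 to 2.16, while those of each of the other 5 members fall on both sides of 0.

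Over the 8 members the direction of the collagens held and that of the others did not. With each library left out in turn, the difference ran from 0.81 to 1.55 for Col1a1, from 1.30 to 2.16 for Col1a2 and from 0.55 to 1.33 for Col3a1. It ran from -0.15 to 0.82 for Krt8, from -0.40 to 0.38 for Krt18 and from -0.13 to 0.24 for Krt19.

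By mean FPKM in the knockout libraries the order was Col1a2, Col1a1, Col3a1, Krt8, Krt18, Msln, Upk3b and Krt19. In the control libraries it was Krt8, Krt18, Col1a2, Col3a1, Col1a1, Msln, Krt19 and Upk3b. No neighbours in either order differed by more than the larger of their SDs. Of all listed genes, 55.4% had a lower mean FPKM over the 6 libraries than Col1a2, 47.8% than Col1a1, 47.1% than Col3a1 and 45.0% than Krt8. For Krt18, Msln, Upk3b and Krt19 the share was 40.4%, 37.2%, 32.4% and 31.1%.

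Summed as reads per 1000000 listed reads, the 3 collagens were at 19.6, 93.1 and 45.0 in knockout libraries 1 to 3 and at 0.659, 7.83 and 19.8 in control libraries 1 to 3. The 3 keratins were at 4.54, 3.51 and 2.22 in the knockout and at 0.0507, 1.75 and 8.96 in the control libraries. Msln with Upk3b were at 1.21, 3.81 and 1.20 in the knockout and at 0.0760, 0.770 and 3.54 in the control libraries. In all 3 classes control library 1 was the lowest and control library 3 the highest of the controls, and control library 1 had almost none of these messages. Within the controls the highest library was 30.1 times the lowest for the collagens, 177 times for the keratins and 46.6 times for the mesothelial markers. Within the knockout libraries these ratios were 4.76, 2.04 and 3.19. Timd4 was highest in control library 1 (19.5 FPKM) and lowest in control library 3 (1.19 FPKM), and its part in these values was not tested.

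**Figure D3:**
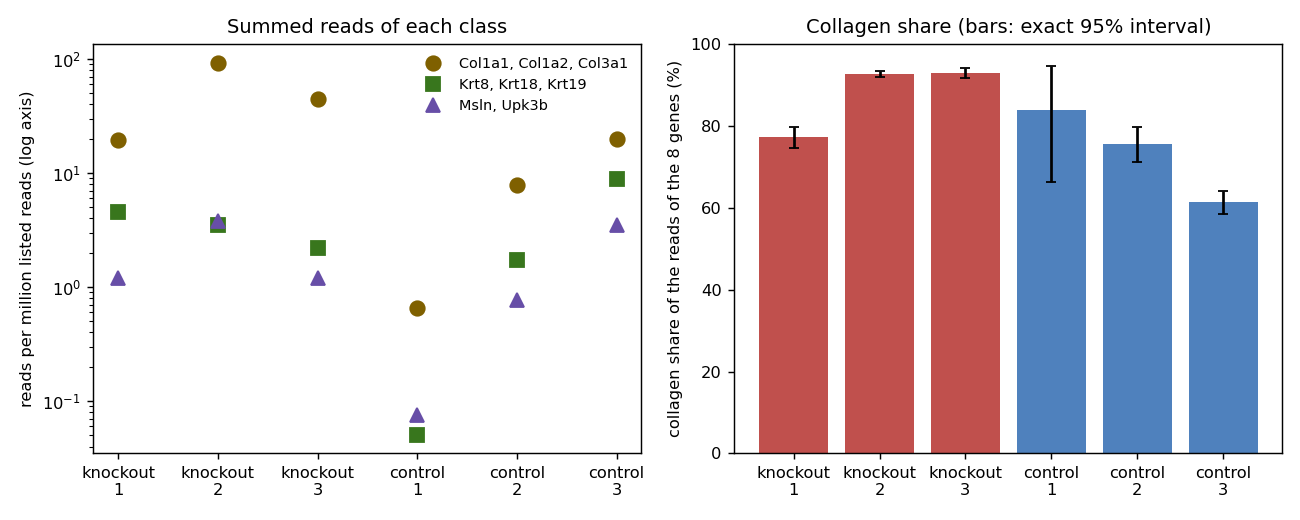
On the left, summed reads of the collagens, keratins and mesothelial markers per 1000000 listed reads in each library on a log axis; on the right, the share of the reads of all 8 genes that fell on the 3 collagens, in percent, with exact binomial 95% intervals. The left panel shows control library 1 as the lowest library for every class, with 26 collagen, 2 keratin and 3 mesothelial reads, and the right panel a share between 61.3% and 92.9%.

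The make-up of these reads differed between libraries that held a like amount of them. Knockout library 1 and control library 3 held 1064 and 1168 reads of the 8 genes. In the first, 77.3% of these reads fell on the collagens (exact 95% interval 74.6% to 79.7%), and in the second 61.3% (58.4% to 64.1%). The share was 92.7% (91.9% to 93.5%) in knockout library 2 and 92.9% (91.7% to 94.0%) in knockout library 3. It was 83.9% (66.3% to 94.5%) in control library 1, from 31 reads, and 75.7% (71.2% to 79.8%) in control library 2. The groups overlapped, and the intervals cover counting error only.

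The 17 listed genes among 20 other fibroblast markers were read beside the collagens. Of the 9 tested, 1 was called, higher in the knockout libraries, and their median log2 difference was 0.94, beside -0.11 for all genes tested. Of these 9, 4 (Pdgfra, Bgn, Ccdc80 and Fbn1) reached the filter only in the knockout group, so the median carries no weight as support. The gene called was Fstl1 (follistatin-like 1, a secreted glycoprotein of mesenchymal cells), at 12.04, 20.7 and 14.4 FPKM in the knockout group and 1.83, 3.29 and 4.84 FPKM in the controls. Its log2 difference was 1.98, with an adjusted p of 0.0153 by limma. The call was lost without knockout library 1, knockout library 2 or control library 2, each of which left 0 of the list called.

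Several other fibroblast markers are given here after their values were seen. Sparc, a matrix protein that binds collagen, was at 4.58, 12.8 and 6.77 FPKM in the knockout group and 0.192, 1.70 and 4.88 FPKM in the controls. Bgn (biglycan, a small proteoglycan of collagen fibres) was at 0.813, 4.50 and 2.38 FPKM and at 0.0611, 0.403 and 1.01 FPKM in the same order. Neither passed, with adjusted p-values of 0.121 and 0.124 by limma. Both showed the library order of the collagens, knockout library 2 highest and control library 1 lowest.

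Pdgfra, the growth factor receptor that defines many fibroblasts, was at 0.592, 2.13 and 0.921 FPKM in the knockout group and 0.0220, 0.103 and 0.210 FPKM in the controls. Its groups did not overlap, as for 11.1% of all genes tested, and its adjusted p was 0.0624, or 0.0476 with the replicate block (limma). The block with no filter called 0 genes of the list and 0 of all 15415, with 3787 of these at an unadjusted p below 0.05. Of the other tested genes of the list, Dcn (decorin) had means of 9.38 and 4.42 FPKM in the knockout and control libraries, Fbn1 1.58 and 0.636, Fbln2 2.70 and 1.33, and Ccdc80 1.29 and 0.328, and none of these was called. The 4 markers that follow had a lower mean in the knockout libraries. Pdgfrb, which pericytes also carry, was at 2.95, 1.97 and 5.70 FPKM in the knockout group and 2.70, 4.27 and 11.2 FPKM in the controls. Thy1 had 16, 15 and 17 reads in the knockout group and 51, 48 and 11 in the controls, Pi16 had 12, 6 and 20 against 43, 39 and 14, and Mfap5 had 3, 3 and 2 against 1, 7 and 17. Lum and Postn rested on at most 13 reads in any library. Summed over the list, FPKM ran from 32.6 to 66.6 in the knockout and from 8.84 to 34.5 in the control libraries, which overlapped.

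**Figure D4:**
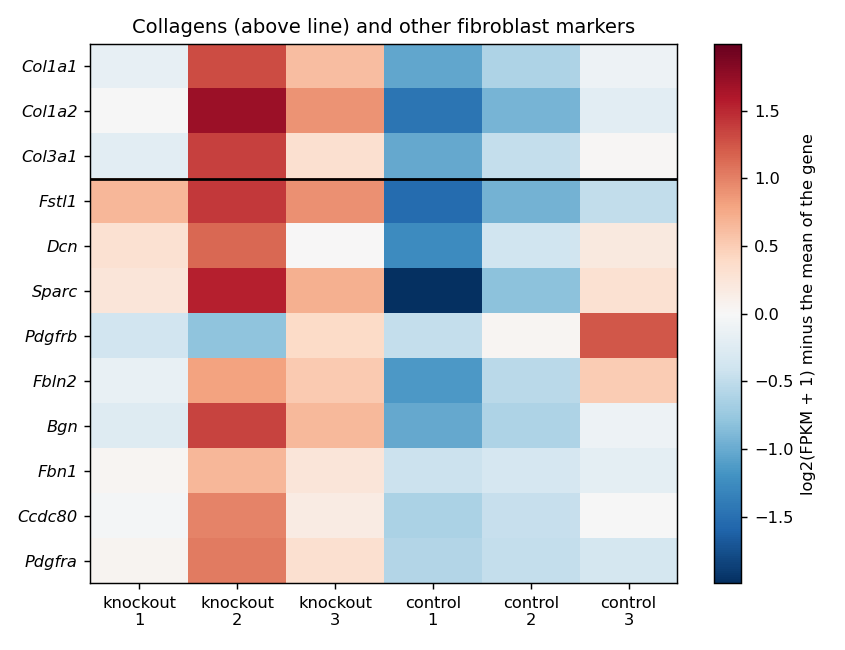
Log2(FPKM + 1) of the 3 collagens (above the line) and the 9 tested fibroblast markers in each library, minus the mean of each gene over the 6 libraries. Knockout library 2 is the highest and control library 1 the lowest library for the collagens, Sparc, Bgn and Fstl1, while Pdgfrb is highest in control library 3, at 11.2 FPKM.

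Of 18 other mesothelial markers 15 were listed and 2 tested, and 1 was called. That was Pdpn (podoplanin, a mucin-like surface protein of mesothelium, lymphatic vessels and also inflammatory macrophages), at 455, 547 and 416 FPKM in the knockout group and 169, 183 and 240 FPKM in the controls. Its log2 difference was 1.26, with an adjusted p of 0.0131 by limma. It stood far above every mesothelial member, and its groups did not overlap. Without knockout library 1, knockout library 2 or control library 2 it was not called either.

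Further mesothelial markers are given after their values were seen. Aldh1a2, a retinoic acid enzyme and the other tested gene of the list, was at 3.36, 5.12 and 4.65 FPKM in the knockout group and 4.21, 4.99 and 6.59 FPKM in the controls, above every mesothelial member, with a log2 difference of -0.22 and an adjusted p of 0.497 by limma. Wt1, a transcription factor of mesothelium, was at 0.108, 0.766 and 0.237 FPKM in the knockout group and 0.0492, 0.0332 and 0.152 FPKM in the controls. Lrrn4 was at 0.390, 0.776 and 0.341 FPKM and at 0, 0.131 and 0.579 FPKM in the same order. Upk1b, a tetraspanin that partners the uroplakins, was at 0.329, 0.781 and 0.598 FPKM and at 0, 0.519 and 1.04 FPKM. Lrrn4 and Upk1b, like Msln, were highest in knockout library 2 within the knockout group and in control library 3 within the controls, and both had 0 reads in control library 1. Krt7 had 11, 13 and 8 reads in the knockout group and 2, 3 and 25 in the controls, and Igfbp6 had 25, 49 and 39 against 39, 28 and 51.

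The genes that process collagen were mixed. Of 25 such genes 24 were listed and 13 tested, with 0 called higher and 1 lower, and a median log2 difference of -0.07. The gene called lower was P4ha2, a subunit of prolyl 4-hydroxylase, at 0.345, 0.545 and 0.458 FPKM in the knockout group and 2.15, 1.91 and 1.67 FPKM in the controls (log2 difference -1.004, adjusted p of 0.0110 by limma). P4ha2 reached the filter through the control group alone, and with no filter 1 gene of the list was called. Ppib, the cyclophilin of the endoplasmic reticulum and the highest of the list, was at 168, 155 and 197 FPKM against 181, 160 and 202 FPKM. Serpinh1, the chaperone dedicated to procollagen and named after its values were seen, did share the order of the collagens, at 2.76, 10.3 and 5.03 FPKM in the knockout group and 0.266, 1.32 and 4.16 FPKM in the controls, with an adjusted p of 0.172 by limma.

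Several genes that bind and break down collagen, which macrophages use, stood at much higher levels than the collagens. Of 18 such genes 17 were listed and 10 tested, with 2 called higher, 0 lower, and a median log2 difference of 0.02. Mrc1 (the mannose receptor, which also takes up collagen) was at 69.4, 66.8 and 63.4 FPKM in the knockout group and 46.2, 45.1 and 41.9 FPKM in the controls, with a log2 difference of 0.57 and an adjusted p of 0.0326 by limma. Ctsk (cathepsin K, a protease that cleaves fibrillar collagen) was at 170, 196 and 267 FPKM against 77.4, 97.6 and 97.5 FPKM, with a log2 difference of 1.19 and an adjusted p of 0.0196. Mmp14, a membrane collagenase and the highest of the list, was at 358, 281 and 411 FPKM against 278, 268 and 375 FPKM, and was not called.

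TGF-beta drives collagen genes in fibroblasts. Of 21 genes of its pathway 20 were listed and 14 tested, with 1 called higher, 2 lower, and a median log2 difference of -0.12. Ltbp3, which stores latent TGF-beta in the matrix, rose by 0.80 on the log2 scale (adjusted p of 0.0274), whereas its relative Ltbp1 fell by 1.72 (adjusted p of 0.0316) and the inhibitory Smad7 fell by 0.66 (adjusted p of 0.0326), all by limma. Tgfb1, the highest of the list, was at 197, 189 and 187 FPKM in the knockout group and 180, 151 and 213 FPKM in the controls. Ltbp1 and Smad7 reached the filter through the control group alone, and with no filter 1 gene of the list was called. Smad7 was not called with the replicate block (adjusted p of 0.0523 by limma). Of the genes of these 3 lists for collagen processing, turnover and TGF-beta, 0 were called without knockout library 1, knockout library 2 or control library 2. Without knockout library 3, 0 of the TGF-beta list and 1 of the turnover list were called.

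Among the other 24 listed collagen genes 4 were tested and 0 called, with a median log2 difference of 0.27. With no filter 1 of the 24 was called by limma and 2 by voom. The 4 were Col4a2, the highest, and Col18a1, Col27a1 and Col6a1. Col6a1, a chain of the beaded type VI collagen of connective tissue, was at 0.550, 2.46 and 0.713 FPKM in the knockout group and 0.0319, 0.258 and 0.744 FPKM in the controls. Col19a1 and Col23a1, named after their values were seen, were lower in every knockout library than in every control, with 31, 27 and 39 reads against 105, 178 and 158 for Col19a1 and 9, 22 and 11 against 57, 40 and 25 for Col23a1. The share of all genes separated in this direction was not counted, so this separation bears no weight. Of the 7 other listed keratin genes, 2 of which (Krt7 and Krt14) are also in the list of mesothelial markers, 1 was tested (Krt80) and 0 called, and none was above 1.45 FPKM in any library.

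Markers of further cell types were counted in the same fit. Of 16 epithelial markers 9 were listed, with 1 tested (Jup) and 0 called, and Epcam was at most 0.134 FPKM in any library. Of 8 listed endothelial markers 4 were tested and 0 called, Eng being the highest, while with the replicate block Pecam1, lower in the knockout libraries, was called (adjusted p of 0.0442 by limma). Of 6 listed smooth muscle and pericyte markers 1 was tested (Acta2) and 0 called, and 0 of 6 adipocyte markers were listed. All 8 macrophage markers were tested and 0 called, Cd68 being the highest.

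Several lymphoid, mast cell and neutrophil markers were lower in the knockout libraries. For scale, the main limma fit called 428 of all 9030 genes tested lower in these libraries. With rescaled libraries that number was 326. The B cell markers Cd79a, Cd79b and Ms4a1 fell, whereas Cd22, on the same list, had means of 7.21 and 7.30 FPKM in the knockout and control libraries (adjusted p of 0.979 by limma). Of 5 tested mast cell markers 5 fell (Tpsb2, Cma1, Cpa3 and Mcpt4 the most), of 3 tested neutrophil markers 2 fell (S100a8 and Camp), and of 2 tested T cell markers 1 fell (Cd2). All 5 mast cell markers, Camp, Cd2, Cd79b and Ms4a1 reached the filter through the control group alone, so their passing it is no support for a difference. With no filter 4 of the mast cell list and 1 of the neutrophil list were called. Of the 5 mast cell markers 4 or 5 were still called with any library left out, but the calls of Cd79a, Cd79b and Ms4a1 were lost without knockout library 1, knockout library 2 or control library 2, and not all of them were called with voom, with no filter or without knockout library 3. The call of Cd2 was lost without any 1 of the knockout libraries or control library 2, with voom and with no filter. In the neutrophil list 0 markers were called without knockout library 1 or control library 2. With the replicate block Kit (adjusted p of 0.0538) and Camp (adjusted p of 0.0529) were not called by limma. Cd79a was at 2.83, 1.54 and 2.63 FPKM in the knockout group and 57.6, 33.7 and 15.3 FPKM in the controls, lowest among them in control library 3, which held the most reads of the 8 genes among the controls. Summed FPKM of the mast cell list was 1.89 to 2.25 against 37.5 to 49.0. The part of these differences in the levels of the collagens, keratins and mesothelial markers was not tested.

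The genes most like each class over the 6 libraries were found by the Pearson correlation of log2(FPKM + 1) with the class mean among 9026 tested genes. It is a description over libraries that also differ by group. For the collagens they were Bgn (r = 0.996), Htra1 (0.996), Angptl4 (0.994), Hspg2 (0.989) and Raet1d (0.986). Htra1, a secreted protease, was at 2.63, 6.03 and 3.85 FPKM in the knockout group and 0.944, 1.62 and 2.45 FPKM in the controls. Hspg2 is perlecan, a proteoglycan of basement membranes, and was at 0.596, 1.73 and 0.887 FPKM against 0.0457, 0.148 and 0.605 FPKM.

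For Msln and Upk3b the nearest genes were Med19 (r = 0.983), Slc25a44 (0.971), Zswim1 (0.963), Mtif3 (0.963) and Vcpkmt (0.954). For the keratins they were Bcl6 (r = 0.987), Gde1 (0.984), Rin3 (0.984), Elmo1 (0.982) and Prim2 (0.982). Neither of these lists holds a marker of mesothelium or epithelium. However, only 2 of 15 listed other mesothelial markers and 1 of 9 listed epithelial markers were among the genes searched. Their absence was thus largely fixed by the filter. Med19 ran only from 6.94 to 9.85 FPKM over the libraries, while Msln ran from 0.0116 to 1.09 FPKM.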

How the data were processed

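RNA of 6 PEM libraries was analysed, 3 per group, assigned by title. The authors deposited 1 table of the comparison. The authors derived FPKM for each library from read counts, and the signal columns are the authors' group means of size-factor-normalized reads. The deposited fold change, log2 fold change, p-value, q-value and direction columns hold the authors' comparison and were not used. The submitters' processing notes name the build mm9. The aligner, counter and annotation are not given in the sources used here, and the promoters are from GRCm38.p6. No per-sample column was left out.

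FPKM and group means together gave back the whole reads behind each value (100% of values within 0.05 of a whole number). A linear model of log2(FPKM + 1) per gene was computed in limma 3.58.1 under R 4.3.3 (moderated by eBayes, trend included). It covered 9030 genes whose mean FPKM reached 1 in either group, with Benjamini-Hochberg adjustment and a threshold of 0.05. Of the 8 members 4 passed this filter. Permutation tests were exact and two-sided. The scripts were tested on simulated data. Alternatives were no filter, at least 10 reads in every library, a pseudocount of 0.1, a replicate block, rescaling by the median of ratios, voom on the recovered reads, a threshold of 0.1 and each library left out. Combinations of these with no filter, so that every member was fitted, and all alternatives for the fibroblast list were added after seeing the data.

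The members and gene lists were chosen with earlier results of these data known. By rule, all members were named, and of each list the genes past the threshold (at most the 4 with the largest difference) and the highest one, and the 5 genes most like each class; others are said to be named after their values were seen. Counts over the B cell list are not reported here. Deviations of same-numbered libraries from their group means correlated at 0.11, 0.11 and 0.30, all above 0.1, and other pairs between -0.33 and 0.29 (knockout 2 with control 1). By the rule that all 3 exceed 0.1 the block was read as a paired fit, but the main fit and the permutation tests are unpaired. The pairing rests on the data alone, since no source says what the numbers share.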

Additional observations from a re-analysis of the deposited data

How the results depend on the processing

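The differences of Col1a1, Col1a2 and Col3a1 kept their direction under every alternative tried. Of the tested members 0 were called, against 2 with the replicate block (Col1a1 and Col1a2), 1 at a threshold of 0.1 (Col1a2), and 0 to 2 with a library left out (2 without control library 3, Col1a2 and Krt8, neither of them with no filter as well). Krt8 reversed to -0.15 without control library 1, over a range of -0.15 to 0.82. The block with no filter called 0 genes of 15415 in all, with 3787 at an unadjusted p below 0.05. With the filter, the block changed no call of Krt8 or Col3a1. The number of genes called was 660, and 8 to 1333 with a library left out, falling to 8 where control library 2 was left out, to 30 for knockout library 1 and to 63 for knockout library 2, and rising to 1333 for control library 3. The cause was not tested. Without the filter 446 genes were called. Of the genes called, 232 were higher and 428 lower, but 343 higher and 326 lower after rescaling by the median of ratios, and 298 higher and 291 lower with voom. Krt18 changed sign under 6 of 11 alternatives, Krt19 under 3 of 11. On the scale of voom, without a pseudocount of 1, log2 differences were given for Col1a1 (3.02), Col1a2 (3.73), Col3a1 (2.98), Krt8 (2.49), Msln (1.73), Upk3b (1.34), Krt19 (1.37) and Krt18 (0.66, positive where it was -0.06), and 0 passed. Of the other fibroblast markers 1 was called, against 2 with the block, with a pseudocount of 0.1 or with voom, and 0 to 3 with a library left out. At least 10 reads in every library left Col1a1 alone of the members. Levels from fewer than about 10 reads, as in control library 1, bear little weight.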

Other observations

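Among the other collagen genes, Col24a1, a minor fibrillar collagen, was chosen after its values were seen. Its reads numbered 5, 29 and 18 in the knockout group and 0 in each control library. Pooled over each group, its share of the listed reads was at least 15.9-fold higher in the knockout libraries against a floor of 3 reads over the control group. That bound allows for counting error in the controls only and not for the spread between libraries. Col6a3, a chain of type VI collagen, had 22, 151 and 42 reads against 0, 5 and 12. Both were highest in knockout library 2, as the collagen members were.

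The following genes were chosen after their values were seen. Pcolce, which enhances the cleavage of procollagen, had 10, 66 and 30 reads in the knockout group and 2, 2 and 4 in the controls. Mrc2, the collagen receptor of fibroblasts, had 9, 48 and 26 reads against 1, 2 and 7. Des (desmin, an intermediate filament of muscle and of some stromal cells) was at 0.202, 0.773 and 0.375 FPKM against 0.0496, 0.0168 and 0.117 FPKM. In the list of collagen receptors, Gp6, the platelet collagen receptor, had 4, 0 and 4 reads in the knockout group and 119, 77 and 2 in the controls. All of these were below the filter of the main test.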
